A study of Homo sapiens with 21 samples.

Results

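The LIF and IL-6 family cytokine axis was followed through 9 of the 58735 genes in the table: the ligands LIF, IL6 and IL11, the chemokine CXCL8, the receptor chains LIFR, IL6ST and OSMR, the transcription factor STAT3 and its inhibitor SOCS3. The genes were chosen from results of these same libraries in which LIF was high with calcium, so every value of the calcium libraries without DES is given as a description, with no test. RNA-seq of poly-A RNA was available for 21 libraries of MDA-MB-453, a human breast cancer cell line with wild-type genotype, 3 for each of 7 groups. These were untreated control cells, calcium (10 mM), cadmium (10 μM), the ESRRB agonist GSK4716 (5 μM), the ESRRB antagonist diethylstilbestrol (DES, 10 μM), DES followed by calcium, and DES followed by cadmium. Each treatment lasted 24 h, and in the combined groups DES (10 μM) was added 3 h before the metal at the same concentration as alone. ESRRB, the estrogen-related receptor beta, is the nuclear receptor through which the study asked whether the metals act. Cells received calcium or GSK4716 without serum, and cadmium with a little charcoal-stripped serum, while the medium of the control and of DES alone was not given separately, so medium and treatment cannot be told apart. The cells are a single line, and the labels do not say whether replicates were separate cultures, so p-values measure the spread between these libraries alone.

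Cytokines of this family signal through a shared receptor chain, gp130, encoded by IL6ST. LIF pairs gp130 with LIFR, IL-6 and IL-11 first bind their own alpha receptors IL6R and IL11RA, and oncostatin M uses OSMR. The receptors activate JAK kinases, which phosphorylate STAT3, and STAT3 induces SOCS3, an inhibitor that shuts the receptor complex off. LIF is known for keeping mouse embryonic stem cells pluripotent. CXCL8 (interleukin 8) is a neutrophil chemokine and not a gp130 cytokine, and it is often induced together with IL6 by NF-kB and AP-1.

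Values are FPKM, in which fragments are scaled by exon length and library size. All 9 markers of luminal breast epithelium were at 1 FPKM or more in every library. Of the markers of other cell types, 4 of 5 for leukocytes, all 3 for endothelium and 3 of 4 for fibroblasts stayed under 1 FPKM in every library, the exception for fibroblasts being COL1A1. The libraries held 14435925 to 28424805 fragments on genes. DES replicate 3 and cadmium replicate 3 stood apart, with 35112 and 31147 genes holding at least 1 fragment against 16605 to 28854 in the other 19 libraries. A mean of 0.5 FPKM over the 21 libraries was required for the tests, and 6 of the 9 genes passed it (LIF, IL11, CXCL8, OSMR, STAT3 and SOCS3). LIF and CXCL8 also exceeded it without the calcium libraries (means of 0.595 and 0.653 FPKM). IL6, LIFR and IL6ST lay under it and were read from a fit without the filter.

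LIF had the largest difference of the 9 genes between calcium and control. The LIF gene lies on chromosome 22 from 30240447 to 30246851, minus strand (GRCh38). In the control it was at 0.148, 0.0477 and 0.198 FPKM, which rested on 19, 4 and 13 fragments. With calcium it was at 50.4, 123 and 39.3 FPKM, from 4468, 8551 and 3488 fragments. The lowest calcium library exceeded every library of the other groups, in which the highest value was 2.08 FPKM. The ratio of the group means was 540, and 341 without calcium replicate 2, the highest library. In these bulk samples, more cells that express LIF and more LIF RNA per cell cannot be told apart.

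When DES preceded calcium, LIF was at 1.24, 0.734 and 0.998 FPKM. These 3 libraries lay far below the calcium libraries, and their mean was 71.6-fold lower. They overlapped the DES libraries, at 0.434, 0.202 and 1.67 FPKM, of which the highest was replicate 3, a library that stood apart. The log2 difference that calcium made to LIF, on the scale of log2(FPKM + 0.1), was 8.14 without DES and 0.70 ± 0.67 (SE) with DES, and the latter did not pass the test (limma, adjusted p = 0.658). The first value is a description, and the difference between the 2 was not tested.

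Outside the calcium groups, LIF stayed low. It was at 0.0416, 0.359 and 0.215 FPKM with cadmium and at 0.0285, 0.270 and 0.550 FPKM with GSK4716, both overlapping the control. With DES and cadmium it was at 1.02, 0.472 and 2.08 FPKM. These libraries lay above those with cadmium alone without overlap, a log2 difference of 2.03 ± 0.69 (SE) that did not pass the test over all genes (limma, adjusted p = 0.101). The DES libraries also lay above the control without overlap (log2 difference 1.57 ± 0.73, limma, adjusted p = 0.144), and the log2 difference was 0.86 without DES replicate 3. In order of mean FPKM the groups were calcium (71.0), DES with cadmium (1.19), DES with calcium (0.991), DES (0.770), GSK4716 (0.283), cadmium (0.205) and control (0.131), and each group after calcium overlapped its neighbor.

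CXCL8 was also highest with calcium, at a lower level. It lies on chromosome 4 from 73740506 to 73743716, plus strand. The control libraries were at 0.163, 0.4996 and 0.0532 FPKM and the calcium libraries at 5.87, 51.3 and 5.03 FPKM. The groups did not overlap, and calcium replicate 2 was 9.41-fold above the mean of the other two. The ratio of the means was therefore 86.8 with this library and 22.8 without it. With DES and calcium CXCL8 was at 1.30, 1.81 and 1.46 FPKM, below every calcium library and above every DES library (1.13, 1.06 and 0.159 FPKM). The difference from DES did not pass the test (log2 difference 1.17 ± 0.64, limma, adjusted p = 0.473). Cadmium (0.169, 0.865 and 0.722 FPKM), GSK4716 (0.646, 0.198 and 0.166 FPKM) and DES with cadmium (1.01, 0.190 and 0.170 FPKM) overlapped the control.

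IL6 was not detected in the control or with GSK4716, with 0 fragments in all 6 libraries, where a count of 0 still allows up to 3 fragments (for counting error only). The gene lies on chromosome 7 from 22725884 to 22732002, plus strand. With calcium it was at 0.585, 7.71 and 0.410 FPKM, from 27, 279 and 19 fragments. This was at least 43.3-fold higher than 3 fragments per control library, and at least 7.41-fold without calcium replicate 2. With DES and calcium IL6 was at 0, 0.0894 and 0 FPKM, below each calcium library. With cadmium it was at 0.106, 0.0475 and 0.118 FPKM, resting on 4, 2 and 4 fragments, with DES at 0, 0.0774 and 0.0583 FPKM, and with DES and cadmium at 0.150, 0 and 0 FPKM.

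IL11, which supports hematopoiesis and bone turnover, went the other way. The gene lies on chromosome 19 from 55364389 to 55370463, minus strand. It was at 0.313, 0.478 and 0.317 FPKM in the control and at 0.0671, 0.300 and 0.134 FPKM with calcium, so the calcium libraries were lower without overlap. The log2 difference was -0.89 ± 0.40 (SE), a description at a level under 0.5 FPKM. With DES it was at 0.811, 0.520 and 0.881 FPKM, above each control library (log2 difference 0.83 ± 0.38, limma, adjusted p = 0.137). The groups with cadmium (0.329, 0.515 and 0.433 FPKM), GSK4716 (0.444, 0.548 and 0.597 FPKM), DES with calcium (0.715, 0.0692 and 0.608 FPKM) and DES with cadmium (1.05, 0.432 and 1.07 FPKM) overlapped the control or each other.

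**Figure D1:**
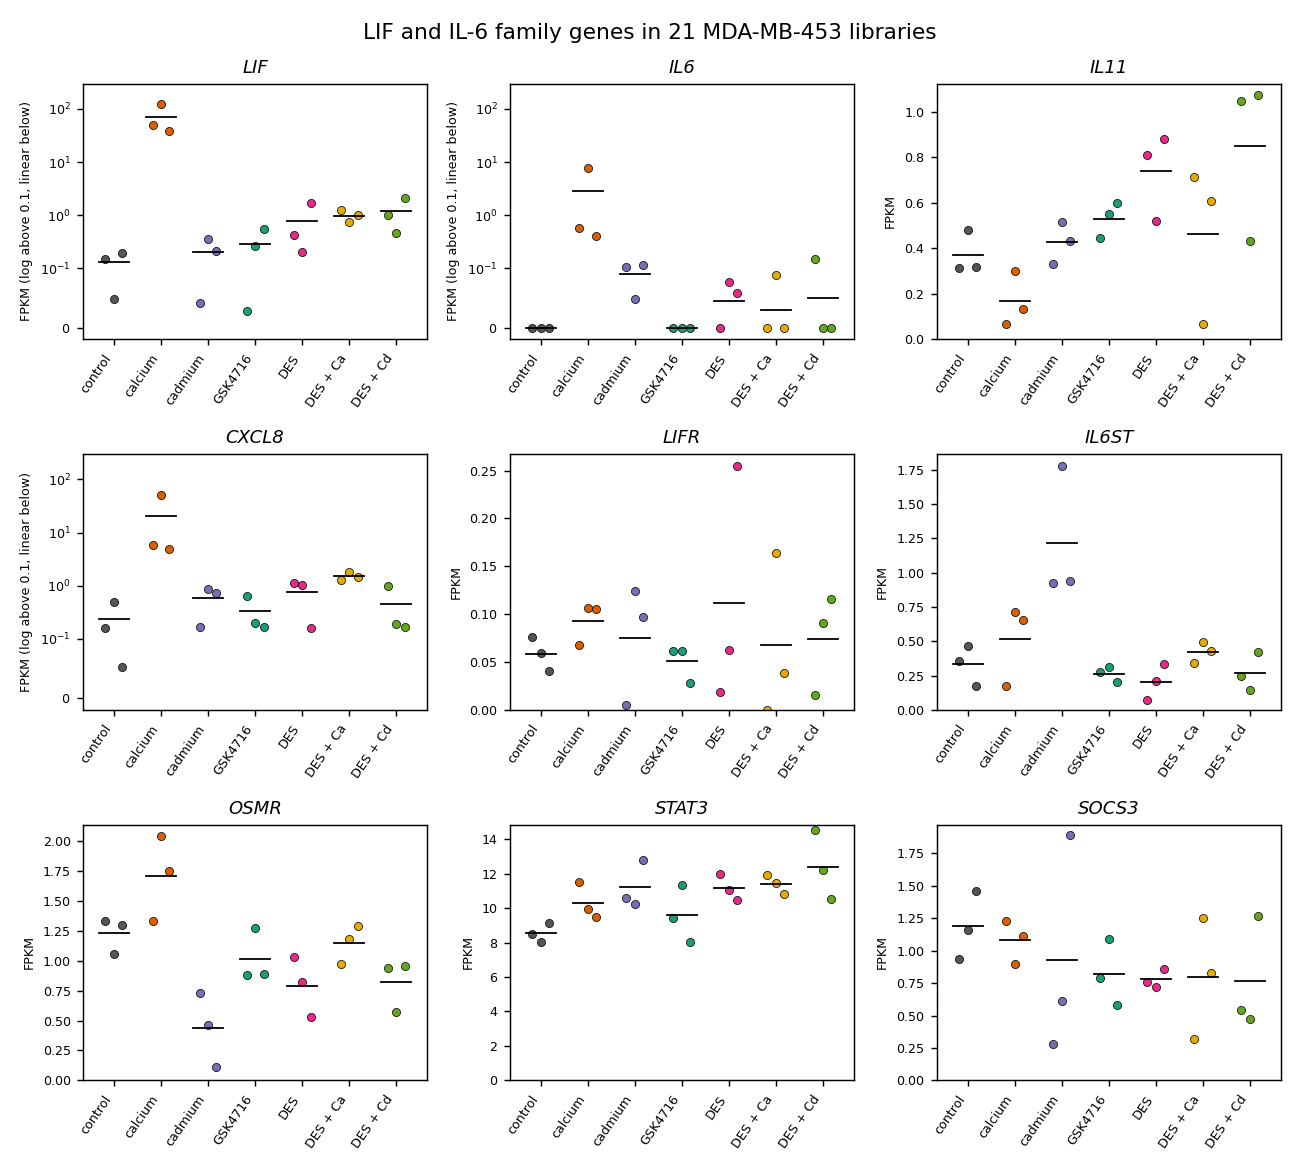
FPKM of the 9 genes in each of the 21 libraries, 1 panel per gene, with 3 points and a bar at the mean for each of the 7 groups on the x axis. The y axis is FPKM, logarithmic above 0.1 for LIF, IL6 and CXCL8 and linear from 0 for the others. LIF, IL6 and CXCL8 are highest in the 3 calcium libraries, with replicate 2 (middle point) on top, while STAT3 stays between 8.03 and 14.5 FPKM in every library.

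The promoters of CXCL8, IL6 and IL11 are shown because these genes lay apart from the control with calcium, up or down, and because the windows hold motifs of AP-1 and NF-kB, whose members are known to act on cytokine genes. STAT3 also lay above the control with calcium, but its window held none of the motifs given below and is not shown. Each window shown thus holds a motif by choice. The reference table (RefSeq, GRCh38.p14) had 11 promoters for 8 of the 9 genes and none for LIF. Each sequence runs 5′ to 3′ from 250 bases before the RefSeq start and ends before the first base of an annotated exon of the gene (GENCODE 44) or of its span in the table, which leaves out the last 63 bases before the RefSeq start of CXCL8, 53 for IL6 and 0 for IL11. The IL6 sequence lies inside the span given above, which begins further upstream. The letters are in lower case, with the matched motif in capitals.

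CXCL8, chr4:73740319-73740505, plus strand, AP-1 motif in capitals: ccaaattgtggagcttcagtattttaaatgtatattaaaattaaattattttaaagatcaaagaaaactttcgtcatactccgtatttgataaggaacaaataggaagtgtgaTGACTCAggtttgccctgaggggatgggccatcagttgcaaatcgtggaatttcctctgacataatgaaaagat

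IL6, chr7:22726950-22727146, plus strand, NF-kB consensus in capitals: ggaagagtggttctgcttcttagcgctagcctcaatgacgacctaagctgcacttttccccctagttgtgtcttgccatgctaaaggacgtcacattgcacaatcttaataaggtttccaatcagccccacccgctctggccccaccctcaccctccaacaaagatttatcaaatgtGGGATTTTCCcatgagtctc

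IL11, chr19:55370464-55370713, minus strand, AP-1 motif in capitals: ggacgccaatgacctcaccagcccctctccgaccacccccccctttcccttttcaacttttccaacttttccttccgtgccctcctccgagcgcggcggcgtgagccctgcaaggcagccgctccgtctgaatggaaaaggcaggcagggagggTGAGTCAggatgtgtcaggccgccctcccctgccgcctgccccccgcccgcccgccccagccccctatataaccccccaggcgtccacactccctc

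The AP-1 motif (TGANTCA, either strand) began 137 bases before the RefSeq start of CXCL8 and 96 bases before that of IL11, and 6.57% of 35116 promoters held it in the same 250 bases. The NF-kB consensus began 73 bases before the start of IL6, was also present in the window of IL6ST, and was in 9.96% of promoters. The STAT motif (TTCNNNGAA) was in 2 of the LIFR windows and 6.57% of promoters. The cAMP response element (TGACGTCA, 1.65% of promoters) and the estrogen-related receptor element (TNAAGGTCA, 0.854% of promoters) were in none of the 11 windows. The AP-1 motif thus stood before CXCL8, higher with calcium, and before IL11, lower with calcium. A match is only a run of letters, and a missing one says nothing of the factor.

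The receptor chains were low in every group. LIFR, the partner of gp130 for LIF (chromosome 5, 38474963 to 38608354, minus strand), did not exceed 0.254 FPKM in any library. It was at 0.0756, 0.0598 and 0.0408 FPKM in the control and 0.0680, 0.106 and 0.105 FPKM with calcium, which overlapped. The highest value, 0.254 FPKM, was in DES replicate 3. LIF RNA was thus at 39.3 FPKM or more in the calcium libraries, where LIFR RNA was at 0.106 FPKM or less.

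IL6ST, which encodes gp130 (chromosome 5, 55935095 to 55994993, minus strand), was at 0.356, 0.464 and 0.176 FPKM in the control and 0.174, 0.714 and 0.654 FPKM with calcium. These groups overlapped. With cadmium IL6ST was at 0.923, 1.78 and 0.936 FPKM, the highest of the 7 groups, with no overlap with any other group. The log2 difference from the control was 1.60 ± 0.40 (SE) and did not pass the test in the fit without a filter (limma, adjusted p = 0.328). With DES and cadmium IL6ST was at 0.248, 0.147 and 0.421 FPKM, each below the cadmium libraries (log2 difference -1.82 ± 0.42, limma, adjusted p = 0.190). The remaining groups lay at 0.0714 to 0.497 FPKM. IL6ST overlaps an antisense transcript, AC016596.1, which was at 10.1 to 11.5 FPKM in the control.

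OSMR, the oncostatin M receptor chain (chromosome 5, 38845858 to 38945596, plus strand), differed from the control in the direction opposite to IL6ST with cadmium. It was at 1.33, 1.06 and 1.30 FPKM in the control and at 0.728, 0.466 and 0.110 FPKM with cadmium. The cadmium libraries were lower without overlap, and the lowest was replicate 3, a library that stood apart. The log2 difference was -1.52 ± 0.53 (SE) and did not pass the test (limma, adjusted p = 0.148). Without cadmium replicate 3 it was -0.95 ± 0.27 (limma, adjusted p = 0.147). With calcium OSMR was at 1.33, 2.04 and 1.75 FPKM and with DES and calcium at 0.970, 1.19 and 1.29 FPKM, lower than with calcium alone in each library. With DES it was at 1.03, 0.819 and 0.530 FPKM, below the control without overlap (log2 difference -0.61 ± 0.32, limma, adjusted p = 0.185, and -0.38 without DES replicate 3). With GSK4716 (0.882, 1.27 and 0.889 FPKM) and with DES and cadmium (0.936, 0.573 and 0.952 FPKM) it lay between. OSMR overlaps RICTOR on the other strand.

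STAT3, the main transcription factor downstream of gp130 (chromosome 17, 42313324 to 42388568, minus strand), was at 8.03 to 14.5 FPKM over the 21 libraries. It was at 8.50, 8.03 and 9.16 FPKM in the control, 11.5, 9.96 and 9.50 FPKM with calcium and 10.6, 10.3 and 12.8 FPKM with cadmium. Both metals gave values above each control library, 1.20-fold for calcium and 1.31-fold for cadmium by the means. With DES it was at 11.99, 11.1 and 10.5 FPKM, also above the control without overlap (log2 difference 0.38 ± 0.14, limma, adjusted p = 0.0854). With cadmium the log2 difference was 0.38 ± 0.14 (limma, adjusted p = 0.164), so neither passed. STAT3 was at 9.43, 11.3 and 8.03 FPKM with GSK4716, 11.9, 11.5 and 10.8 FPKM with DES and calcium, and 14.5, 12.2 and 10.5 FPKM with DES and cadmium. FPKM measures the RNA and not the phosphorylation through which STAT3 acts.

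SOCS3, the feedback inhibitor (chromosome 17, 78356778 to 78360077, minus strand), was not higher with calcium. It was at 0.939, 1.16 and 1.46 FPKM in the control and at 1.23, 0.900 and 1.11 FPKM with calcium, which overlapped, and the means differed 0.910-fold. With cadmium it spread from 0.282 to 1.89 FPKM, with the highest value in replicate 3. The log2 difference from the control was -0.64 ± 0.61 (limma, adjusted p = 0.525), and -1.28 ± 0.37 without that library (limma, adjusted p = 0.148). With DES it was at 0.760, 0.723 and 0.861 FPKM, below each control library (log2 difference -0.53 ± 0.29, limma, adjusted p = 0.196). SOCS3 was at 0.786, 1.09 and 0.583 FPKM with GSK4716, 0.315, 1.25 and 0.831 FPKM with DES and calcium, and 0.546, 0.475 and 1.27 FPKM with DES and cadmium.

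**Figure D2:**
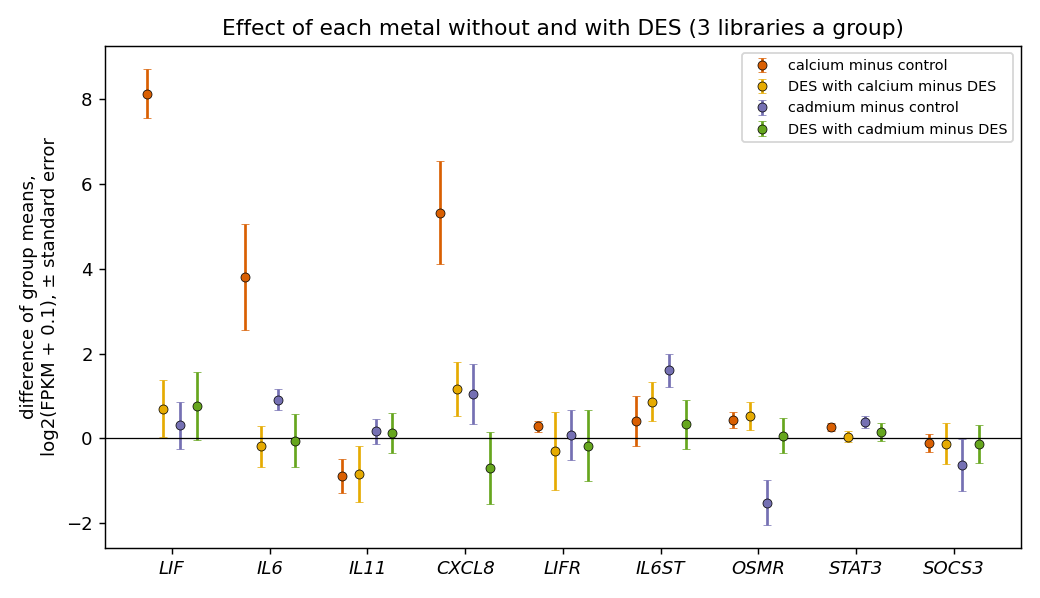
Difference of group means on the scale of log2(FPKM + 0.1), with its standard error, for the 9 genes on the x axis, for calcium and cadmium each without and with DES (3 libraries a group). LIF, CXCL8 and IL6 are at 8.14, 5.33 and 3.80 for calcium without DES and at 0.70, 1.17 and -0.19 with DES, and cadmium has its largest differences in IL6ST and OSMR.

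Counted over the 9 genes, 4 were higher with calcium than the control in every library (LIF, IL6, CXCL8 and STAT3) and 1 was lower (IL11), where 16% of the 14686 genes tested were higher without overlap and 13.6% lower. The rule used this contrast, so nothing is read from the count. Between DES with calcium and calcium alone, 4 of the 9 were lower without overlap (LIF, IL6, CXCL8 and OSMR) and 0 were higher, where 25.1% of all genes were lower and 25.7% higher. The median log2 difference of the 9 genes was 0.41 with calcium and -0.52 when DES was added to calcium, against -0.01 over the 14686 genes tested in both cases. Over the 6 genes that passed the filter it was 0.35 and -0.53. The contrast of DES with calcium also uses the calcium libraries by which the genes were chosen. Nothing is therefore read from its count or from these medians.

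In the 7 comparisons with a test, limma called 0 of the 9 genes in each, and limma-voom on the recovered fragments called 1, IL6 with cadmium. IL6 was read there from the fit without the filter, which called 1.5% of 58735 genes, and with the filter limma-voom called 3.28%. For cadmium against control, 0.15% of all genes were called, and 4 of the 9 had an unadjusted p under 0.05 (IL6, IL6ST, OSMR and STAT3), as did 25.9% of all genes. For GSK4716, limma called 0% of all genes (2404 had an unadjusted p under 0.05, and limma-voom called 79), and 0 of the 9 had an unadjusted p under 0.05. For DES against control, where 29.6% of all genes were called, 1 of the 9 had such a p (STAT3), against 43.2% of all genes. For calcium added to DES (0.136% of all genes called) and for cadmium added to DES (0.266%), 0 of the 9 had an unadjusted p under 0.05, against 13.2% and 10.4% of all genes. For DES added to cadmium (9.89% called, 32.6% with such a p) these were LIF and IL6ST. For the interaction, the effect of cadmium with DES minus that without (1.18% called, 18.5% with such a p), it was OSMR (log2 difference 1.57 ± 0.69, limma, adjusted p = 0.256).

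Among the other ligands and receptors of the family that passed the filter, CLCF1 and IL6R were higher with calcium without overlap, and IL11RA and IL27RA were lower. CLCF1, a ligand of the ciliary neurotrophic factor receptor, was at 0.924, 1.68 and 2.21 FPKM in the control and 7.69, 15.7 and 10.8 FPKM with calcium. With DES and calcium it was at 0.655, 0.655 and 1.41 FPKM, which overlapped DES alone (0.604, 1.11 and 1.16 FPKM). CLCF1 was the only one of 8 further ligands on the list to pass the filter. IL6R, the alpha receptor of IL-6, was at 2.68, 2.11 and 4.53 FPKM in the control, 13.0, 10.1 and 15.4 FPKM with calcium, and 3.20, 4.16 and 2.03 FPKM with DES and calcium. Neither gene overlapped between calcium and the other two groups. IL6R was also at 6.66, 5.90 and 10.9 FPKM with GSK4716 and 3.96, 7.67 and 7.58 FPKM with cadmium, neither of which passed. Limma and limma-voom each called 0 of the 3 receptors and 0 of the 6 JAK and STAT genes that passed the filter in the 7 tested comparisons, where at most 2 of either list had an unadjusted p under 0.05. Over all genes limma called 0% to 29.6% in these comparisons, and 10.4% to 43.2% had such a p.

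IL11RA, the alpha receptor of IL-11, was lower with calcium without overlap (1.96, 2.20 and 2.26 FPKM against 2.97, 2.60 and 2.83 FPKM). IL27RA, the chain that pairs with gp130 for IL-27, was at 1.01, 1.29 and 0.756 FPKM in the control and 0.726, 0.483 and 0.241 FPKM with calcium. With cadmium it was at 0.408, 0.166 and 0.246 FPKM, also below each control library, and did not pass the test (log2 difference -1.61 ± 0.36, limma, adjusted p = 0.0805). The kinase JAK1 was at 9.74, 9.05 and 9.09 FPKM in the control and 13.2, 13.99 and 14.1 FPKM with calcium. TYK2 overlapped between control (15.8 to 16.7 FPKM) and calcium (12.1 to 17.3 FPKM).

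**Figure D3:**
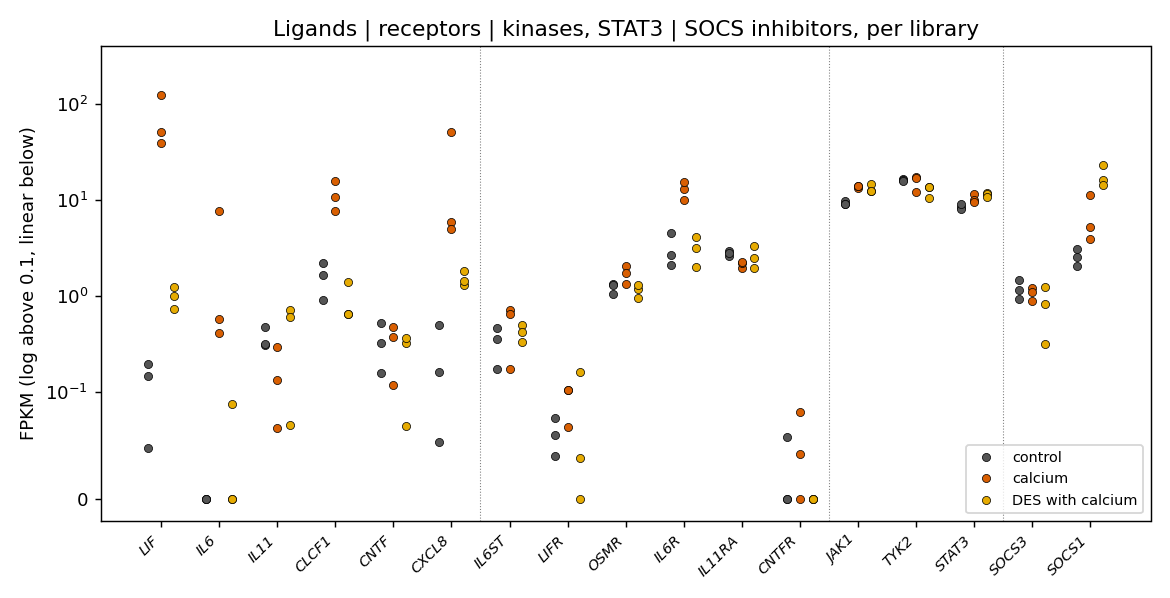
FPKM per library (y axis, logarithmic above 0.1 and linear below) of family ligands with CXCL8, receptors, kinases with STAT3, and the SOCS inhibitors, divided by dotted lines, in the control, calcium and DES with calcium groups (3 points each). LIF and CLCF1 are far higher with calcium than in both other groups, while LIFR stays under 0.2 FPKM and SOCS3 overlaps.

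Among the negative regulators, SOCS1, which inhibits JAK kinases directly, rose with DES, while SOCS3 did not pass the test. SOCS1 was at 2.58, 2.08 and 3.07 FPKM in the control, 5.24, 11.3 and 3.93 FPKM with calcium and 32.2, 37.3 and 56.3 FPKM with DES. The DES libraries lay far above the others, a log2 difference of 3.95 ± 0.25 from the control (limma, adjusted p = 0.000295). The adapter SOCS7 and the phosphatases PTPN1 and PTPN11 fell with DES (log2 differences -0.99, -1.05 and -0.63), so 1 of the 9 regulators rose and 3 fell, against the 29.6% of all genes called with DES. Sums of markers of other cell types were also higher with DES than in the control, without overlap for the leukocyte markers (0.141 to 1.05 against 0.0547 to 0.113 FPKM) and the fibroblast markers (12.6 to 32.9 against 10.5 to 12.1 FPKM), while the endothelial sum overlapped (0.0292 to 0.543 against 0.00907 to 0.0564 FPKM). The highest fibroblast sum with DES was nearly all COL1A1 (32.7 FPKM), and the highest leukocyte sum with DES came from a single gene. The part of these markers in these and the following results with DES was not tested. The calls of SOCS7 and PTPN11 were lost when some single libraries were left out: without control replicate 1 their adjusted p was 0.0867 and 0.0765, without control replicate 2 it was 0.105 and 0.0684, and for SOCS7 it was 0.0810 without control replicate 3 and 0.0668 without DES replicate 2. CISH was lower with calcium in each library (5.54, 5.27 and 5.00 FPKM against 11.0, 11.7 and 16.0 FPKM), a gene named after its values were seen.

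Several STAT3 response genes rose with DES. Of the 12 that passed the filter, 7 rose (BCL6, CEBPD, PIM1, PIM3, MCL1, BCL2L1 and IRF1) and the other 5 did not pass, against 29.6% of all genes called, and their median log2 difference was 0.77 against 0.05 over all genes. The kinase gene PIM3 went from 40.5, 41.8 and 73.3 FPKM to 297, 428 and 304 FPKM (log2 difference 2.76 ± 0.28, limma, adjusted p = 0.00138). PIM1 went from 0.634, 1.05 and 0.447 to 4.11, 4.09 and 13.2 FPKM (log2 difference 3.00 ± 0.51, limma, adjusted p = 0.00719), highest in DES replicate 3, and the log2 difference was 2.44 without that library. Its call was lost with no filter on low values (adjusted p = 0.0762). CEBPD, a transcription factor of the acute phase response, went from 3.85, 4.11 and 4.58 to 18.2, 18.9 and 16.6 FPKM, and the interferon regulatory factor IRF1 from 0.484, 0.395 and 0.388 to 2.89, 3.51 and 4.04 FPKM. The count of 7 became 4 without control replicate 1 and 3 with no filter on low values. MCL1 lost its call without control replicate 1, 2 or 3 or DES replicate 2 or 3 (adjusted p from 0.0549 to 0.131), BCL2L1 without control replicate 1 or 2 or DES replicate 2 (0.0685, 0.0598 and 0.0566) and BCL6 without control replicate 1 (0.0553).

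With calcium, without a test, 6 of these 12 genes were higher without overlap and 1 lower, beside 16% and 13.6% of all genes. IRF1 was at 2.84, 2.54 and 1.52 FPKM with calcium. JUNB, an AP-1 subunit, was at 67.0, 73.6 and 89.3 FPKM in the control and 285, 372 and 249 FPKM with calcium, and the protease inhibitor TIMP1 went from 19.3, 24.3 and 32.5 to 104, 119 and 87.7 FPKM. These 2 were named after their values were seen. PIM1, which rose with DES, was at 0.497, 0.269 and 0.555 FPKM with calcium and overlapped the control. The list was chosen with earlier results of these data known, and both comparisons share the control libraries.

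Several NF-kB response genes and the chemokine CXCL2 rose with DES as well. Of 13 NF-kB genes on the list 7 passed the filter, and of these 6 rose (NFKBIA, NFKB2, RELB, TNFAIP3, ICAM1 and TNF), with a median log2 difference of 2.07 against 0.05 over all genes, and NFKB1 did not pass. Over all genes 29.6% were called with DES, 16.7% higher. TNF, like CXCL2, reached the filter only through the calcium libraries (means of 0.349 and 0.421 FPKM without them), and without it 5 of 6 NF-kB genes rose. The higher leukocyte and fibroblast marker sums with DES given above stand beside these genes too. With no filter both TNF and CXCL2 were called (limma, adjusted p = 0.0368 for TNF and 0.0294 for CXCL2). TNFAIP3, which encodes the inhibitor A20, went from 0.0674, 0.0375 and 0.0240 to 4.90, 4.43 and 5.63 FPKM with DES (log2 difference 5.16 ± 0.30, limma, adjusted p = 0.000238). NFKBIA, which encodes the inhibitor IκBα, went from 22.1, 22.4 and 19.6 to 110, 95.2 and 70.2 FPKM. RELB lost its call without control replicate 1 or 3 or DES replicate 1 or 2 (adjusted p 0.0671, 0.0579, 0.0546 and 0.0888). CXCL2, a neutrophil chemokine related to CXCL8, was at 0, 0.0316 and 0 FPKM in the control and 1.39, 0.712 and 0.765 FPKM with DES (log2 difference 3.21 ± 0.49, limma, adjusted p = 0.00512). CXCL8 itself reached 1.13 FPKM with DES in its highest library and did not pass (log2 difference 1.31 ± 0.79, limma, adjusted p = 0.242). Its lowest DES library was replicate 3, without which the log2 difference was 2.04 ± 0.63 and still did not pass (limma, adjusted p = 0.0615).

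With calcium, CXCL2, TNFAIP3 and TNF were high in 1 library above all, as CXCL8 and IL6 were. CXCL2 was at 1.28, 21.5 and 0.953 FPKM, TNFAIP3 at 1.78, 7.98 and 1.31 FPKM and TNF at 0.722, 4.64 and 0.0799 FPKM. Replicate 2 was the highest each time, 19.3-fold above the mean of the other two for CXCL2, 5.17-fold for TNFAIP3 and 11.6-fold for TNF, against 2.75-fold for LIF, 9.41-fold for CXCL8 and 15.5-fold for IL6. CLCF1 was also highest in replicate 2, by 1.70-fold, while IL6R was lower there than in the other two (0.712-fold). The summed leukocyte markers were at 0 to 0.184 FPKM with calcium and 0.0547 to 0.113 FPKM in the control, and the endothelial markers at 0 to 0.0172 and 0.00907 to 0.0564 FPKM. The luminal epithelium sum was higher with calcium without overlap, 2375 to 3318 against 1459 to 1797 FPKM. The fibroblast sum was higher too, 14.1 to 17.1 against 10.5 to 12.1 FPKM, nearly all of it COL1A1, and the part of these markers in the result was not tested.

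Over all lists, 39 of 66 further pathway genes passed the filter, and with DES 15 of them rose and 3 fell, a share of called genes to be read against 29.6% of all genes. Without CXCL2 and TNF, 16 of 37 were called. With cadmium limma called 0 of the 39, where 12 had an unadjusted p under 0.05 beside 25.9% of all genes, and limma-voom called 5 (BCL6, IRF1, NFKB2, RELB and TNFAIP3) beside 3.28% of all genes. With GSK4716 it called 0, where 8 had such a p beside 16.4% of all genes, and limma-voom called 0. With calcium added to DES it called 0, where 12 had such a p beside 13.2% of all genes, and limma-voom called 0. With calcium against control, without a test, 19 of the 39 were higher without overlap and 6 lower, beside 16% and 13.6% of all genes. These 19 include CXCL2 and TNF, which reached the filter only through the calcium libraries, so nothing is read from this count.

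**Figure D4:**
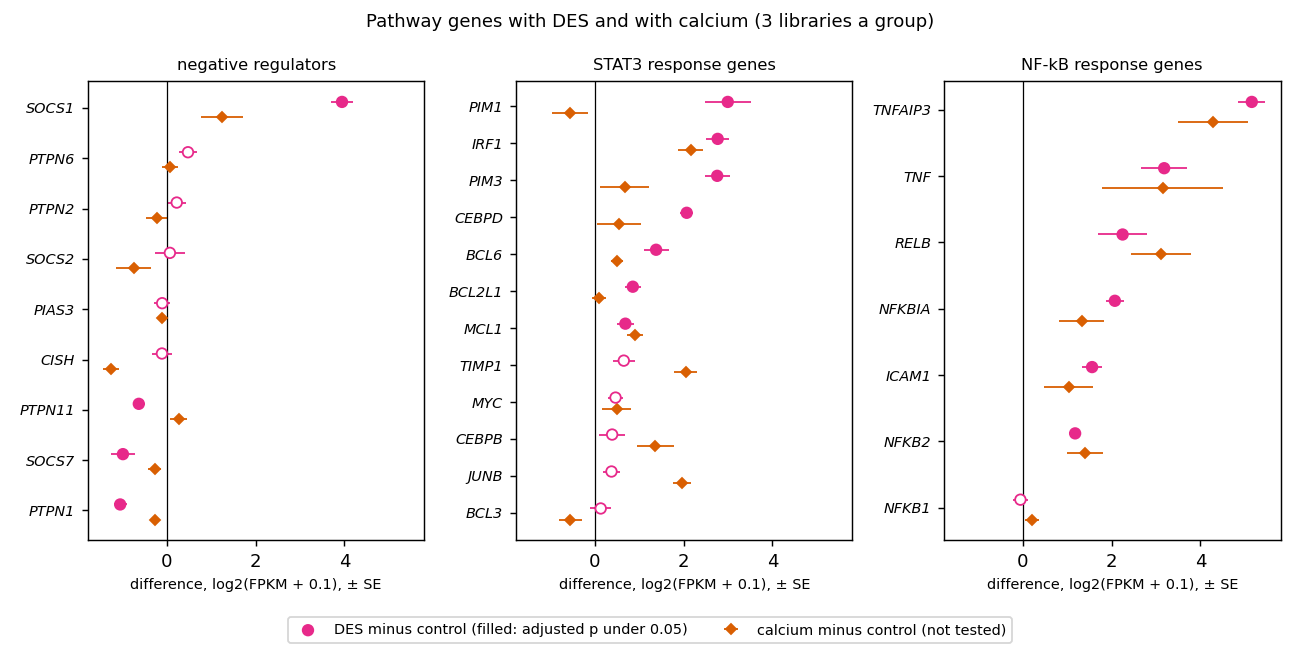
Difference from the control on the scale of log2(FPKM + 0.1), with its standard error (x axis), of the negative regulators, STAT3 response genes and NF-kB response genes that passed the filter (y axis), for DES (circles, filled where the adjusted p is under 0.05) and calcium (diamonds, not tested). Both share the 3 control libraries. SOCS1, PIM1 and PIM3 are farther from 0 with DES, and JUNB and TIMP1 with calcium.

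The NF-kB target TNFAIP3, high with DES, was lower when cadmium was added. It was at 0.446, 0.710 and 0.964 FPKM with cadmium and 0.862, 0.800 and 0.654 FPKM with DES and cadmium, far below DES alone, and fell by 2.55 on the log2 scale when cadmium was added to DES (limma, adjusted p = 0.0330). That call was lost without DES replicate 1, 2 or 3 or DES with cadmium replicate 1 or 3 (adjusted p from 0.0592 to 0.254), with a replicate block (adjusted p = 0.0784), with limma-voom (adjusted p = 0.0922), which called 0 genes in this comparison, and with no filter on low values (adjusted p = 0.0760). When DES was added to cadmium, PIM3 rose by 1.25 ± 0.30 (limma, adjusted p = 0.0489) and SOCS7 fell by 1.96 on the log2 scale (limma, adjusted p = 0.0433). Both were weak calls: leaving out any 1 of the 6 libraries gave PIM3 adjusted p values of 0.0701 to 0.166, and SOCS7 lost its call without cadmium replicate 1, 2 or 3 or DES with cadmium replicate 1 or 3 (0.0554 to 0.186). LIF, CXCL8 and IL6 did not pass in either comparison.

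The gene most like LIF over the 21 libraries was AC004264.1, a transcript that overlaps LIF on the other strand (Pearson r = 0.942 on the log2 scale, as a description). It was at 0 FPKM in each control library and 10.2, 25.9 and 6.13 FPKM with calcium. The labels state both a directional and a non-directional library chemistry, so the reads of LIF and of AC004264.1 cannot be told apart with certainty. The next were IL1RN, the interleukin-1 receptor antagonist (r = 0.933), the small GTPase gene RASD1 (0.918), the mRNA decay factor ZFP36 (0.916) and the matricellular gene CYR61 (0.906). Mean FPKM went from 0.167 in the control to 5.25 with calcium and 0.317 with DES and calcium for IL1RN, and from 0.431 to 91.5 and 4.70 for RASD1. ZFP36 went from 30.1 to 270 and 61.1, and CYR61 from 9.34 to 177 and 41.7.

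Within the 9 genes, IL6 (r = 0.802) and CXCL8 (r = 0.779) were most like LIF over 21 libraries. Over the 18 libraries without calcium alone, these were 0.0161 and 0.159, far lower than with the calcium libraries included. For SOCS3 the most similar genes were INSIG1 (r = 0.652) and SCD (0.636), both genes of lipid synthesis, then AP003068.2, AC002470.1 and FUT10 (0.620 to 0.629). The correlations share libraries and depth and are given with no p.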

How the data were processed

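RNA-seq of 21 MDA-MB-453 libraries was used. Per the labels, mRNA was captured on poly-T beads. The submitters' processing notes name HISAT2 2.0.5, featureCounts 1.5.0-p3 and GRCh38.p14. The authors deposited FPKM per gene, and their methods name DESeq2 and edgeR, neither of which was run here. FPKM times gene length gave whole multiples of 1 step for 100% of values (tolerance 0.1), taken as fragments (14435925 to 28424805 per library, median 18314738). Intervals and floors cover counting error only.

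Tests used limma 3.58.1 (R 4.3.3; lmFit, eBayes with trend) on log2(FPKM + 0.1) for 14686 genes averaging 0.5 FPKM or more over 21 libraries, with the compared groups in each fit. P-values are two-sided, adjusted by Benjamini-Hochberg, threshold 0.05. A fold change on this scale understates that of low genes. The steps were tested on simulated data.

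The members and gene lists were chosen with earlier results of these data known. Named were the 9 genes, up to 4 genes per list (largest called difference, else highest mean) and the 5 most like LIF and SOCS3. Other genes were named after their values were seen, and 1 list gene is not reported here. Equal replicate numbers deviated together (correlations over 0.1) for DES with calcium (0.132, 0.103, 0.280) and DES with cadmium (0.472, 0.121, 0.313) against DES, and the block changed no call of the 9 genes there. Figures used Python 3.11.15 and matplotlib 3.10.9.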

Additional observations from a re-analysis of the deposited data

Results flagged for a closer look

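The effect of cadmium differed with and without DES for 4 of the 39 pathway genes that passed the filter, beside 1.18% of all genes, by the interaction term of the limma fit over the control, cadmium, DES and DES with cadmium libraries. For TNFAIP3 the log2 difference that cadmium made was 2.46 without DES and -2.55 with DES, an interaction of -5.00 ± 0.48 (SE; limma, adjusted p = 0.00321). For IRF1 it was 1.57 and -1.88, an interaction of -3.45 ± 0.43 (limma, adjusted p = 0.00850). For SOCS1 it was 0.54 and -2.08, an interaction of -2.62 ± 0.43 (limma, adjusted p = 0.0222), and for NFKB2 1.09 and -0.35, an interaction of -1.44 ± 0.26 (limma, adjusted p = 0.0326). TNFAIP3 and IRF1 kept their calls in each alternative run, apart from the filter at 2 FPKM, which they do not reach, with adjusted p up to 0.0233 and 0.0407. SOCS1 lost its call without control replicate 1 or 2, cadmium replicate 2 or 3, or DES replicate 2 or 3 (adjusted p from 0.0512 to 0.0692), and NFKB2 without any 1 of the 3 control libraries, cadmium replicate 2 or 3, or DES replicate 2 or 3 (0.0504 to 0.106). Both also lost it with no filter on low values (0.0832 and 0.0592). Limma and limma-voom each called the interaction of 0 of the 9 cytokine axis genes, of which 1 (OSMR) had an unadjusted p under 0.05.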

How the results depend on the processing

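Under the alternatives (a pseudocount of 1, no filter, a filter at 2 FPKM, median-ratio scaling, scaling by total fragments, all 7 groups in one fit, a replicate block, limma-voom, each library left out), 118 of 124 counts of members called or not overlapping stayed within 1.5 times the first value. With all 7 groups in one fit, cadmium against control called 1 of the 9 genes (OSMR, beside 6.99% of all genes) and DES added to cadmium called 2 (LIF, beside 37.2%, and IL6ST, beside 8.56% without the filter). With limma-voom, cadmium against control called 1 (IL6, beside 1.5% without the filter). Leaving out 1 library gave 0 to 1 called for DES against control, the 1 being IL6 without DES replicate 1 (beside 3.12% without the filter). It gave 5 to 8 not overlapping for calcium against control, 8 without calcium replicate 1, and 4 to 7 for DES with calcium against calcium, 7 without DES with calcium replicate 2, since fewer libraries overlap less often. With a replicate block, limma called 0 of the 9 genes in each of the 7 tested comparisons, as without it, and among pathway genes MCL1 and PTPN11 (DES against control, adjusted p = 0.0735 and 0.0519) and PIM3 and SOCS7 (DES added to cadmium, 0.0812 and 0.0656) were not called; equal numbers do not pair these libraries. With no filter, SOCS7, BCL6, PIM1, MCL1, BCL2L1 and RELB lost their calls for DES against control (adjusted p from 0.0762 to 0.193), as did SOCS7 and PIM3 for DES added to cadmium (0.183 and 0.211). Scaling by total fragments ended those of MCL1 with DES (0.109) and of PIM3 for DES added to cadmium (0.0758), and all 7 groups in one fit those of PTPN11 and MCL1 with DES (0.132 and 0.119). The cause of the other changes was not tested.

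The values of LIF, IL6, CXCL8, IL11, STAT3 and OSMR in the calcium comparisons kept their direction in all 90 values computed (both scalings, a pseudocount of 1, the replicate block and each library left out). LIF ranged from 7.65 to 8.47 for calcium against control when 1 library was left out, and a pseudocount of 1, chosen after seeing the data, gave 5.82 for LIF, 3.40 for CXCL8, 1.43 for IL6 and -0.23 for IL11. Of 25 calls of pathway genes, 13 kept their call in every alternative, and 69 of 366 values lost it with the same direction. Scaling by total fragments shifted the median of all genes by -0.31 for DES added to cadmium, the largest shift of the 9 comparisons, and by -0.11 for calcium against control. The filter at 2 FPKM could not test PIM1, IRF1, CXCL2, TNFAIP3 and TNF, which lie under it. Counts of fragments limit IL6, which holds few fragments outside calcium, and LIFR, which holds few in every group.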
